A study of Mus musculus with 18 samples.

Results

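The 10 genes described here encode the receptor chains *Il6ra*, *Il6st*, *Lifr* and *Osmr*, the Janus kinases *Jak1*, *Jak2* and *Tyk2*, the transcription factor *Stat3*, and its target genes *Socs3* and *Pim1*. They were taken by gene symbol from a liver expression table of 37303 genes, and each symbol matched 1 gene. The 6 groups were WT, *Gcn2*-/- and *Atf4*-/- mice on the C57BL/6J background, each injected intraperitoneally once a day for 8 days with L-asparaginase (ASNase, the native *E. coli* enzyme, at 3 IU per gram body weight) or with PBS. Livers were collected 7.5 h after injection, and polyA RNA was sequenced from 3 mice per group, 18 in all. ASNase removes asparagine and glutamine from the blood. GCN2 is a kinase that responds to amino acid shortage by phosphorylating eIF2, and ATF4 is the transcription factor whose translation this raises. Both knockouts were homozygous and were not restricted to hepatocytes, so every tissue of the mouse lacked the gene. Sample labels gave ages of 8 to 16 weeks and the growth description 8 to 12. Both sexes were used, with 1 male of 3 mice in WT PBS, *Gcn2*-/- PBS and *Gcn2*-/- ASNase and 2 males of 3 in WT ASNase, *Atf4*-/- PBS and *Atf4*-/- ASNase. The part of sex cannot be told apart from that of treatment or genotype where these numbers differ.

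IL-6 family cytokines bind a ligand-specific chain and then the shared signalling chain gp130, encoded by *Il6st*. IL-6 uses the IL-6 receptor with gp130. Leukemia inhibitory factor uses the LIF receptor with gp130, and oncostatin M can use the oncostatin M receptor with gp130. Janus kinases held by gp130 and its partners phosphorylate STAT3, which enters the nucleus and switches on acute phase genes in hepatocytes together with *Socs3*, whose protein binds gp130 and JAKs and shuts the signal down.

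Each value is an FPKM, the number of sequenced fragments scaled to transcript length and to the depth of the library. It was estimated with Cuffdiff for a whole group of 3 libraries, and the range printed after a value is the Cuffdiff interval. The table holds no value of a single mouse, so there is no SD, no replicate check and no p-value. Over the 60 member values the interval reached from 41.0% to 182% of the FPKM to either side before it was stopped at 0, with a median of 54.8%. A difference is given as log2(FPKM + 0.1) of the first group minus that of the second, which understates the change of a low gene. A gene was called between 2 groups when neither estimate had failed or was 0, at least 1 of them exceeded 3 FPKM, the log2 difference was over 1.5 in size and the intervals did not overlap. RNA was from whole liver, in which fewer cells of a type and less RNA per cell cannot be told apart.

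Markers of hepatocytes were high in every group, with a summed level of 10 genes between 10935 and 26219 FPKM and none at 0. Markers of other tissues were uneven. The summed level of 10 skeletal muscle genes was 838 FPKM in PBS-treated and 1201 in ASNase-treated WT mice against 5.94 to 154 in the knockout groups, and that of 5 lung epithelium genes was 134 FPKM in WT PBS and at most 2.35 elsewhere. *Atf4* itself was at 50.4 to 68.1 FPKM in the WT and *Gcn2*-/- groups and at 32.3 (19.1 to 45.5) and 29.3 FPKM in the *Atf4*-/- groups, lower but not absent, and the interval in *Atf4*-/- PBS overlapped that in WT PBS (29.7 to 71.1). *Eif2ak4*, which encodes GCN2, was at 2.19 to 3.14 FPKM in all 6 groups, and its gene-level value therefore does not check the *Gcn2*-/- label. The authors checked both deletions by read density, and reported that a *Gcn2* exon and *Atf4* were missing in the respective knockouts. They also genotyped the mice by PCR and assessed *Atf4* expression by RT-qPCR.

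Of the 10 genes, *Lifr*, *Osmr*, *Socs3* and *Pim1* separated between groups, and the other 6 had intervals that overlapped in every pair of groups. With ASNase *Lifr* fell and *Osmr* and *Socs3* rose in both knockout strains, *Pim1* rose in *Atf4*-/- mice, and no member was called in WT mice. The share of all tested genes called was 0.881% for ASNase against PBS in WT, 3.69% in *Gcn2*-/- and 7.37% in *Atf4*-/- mice. Against these shares, 0 of the 9 members that could be called in WT, 3 of 10 in *Gcn2*-/- and 4 of 10 in *Atf4*-/- mice were called.

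**Figure D1:**
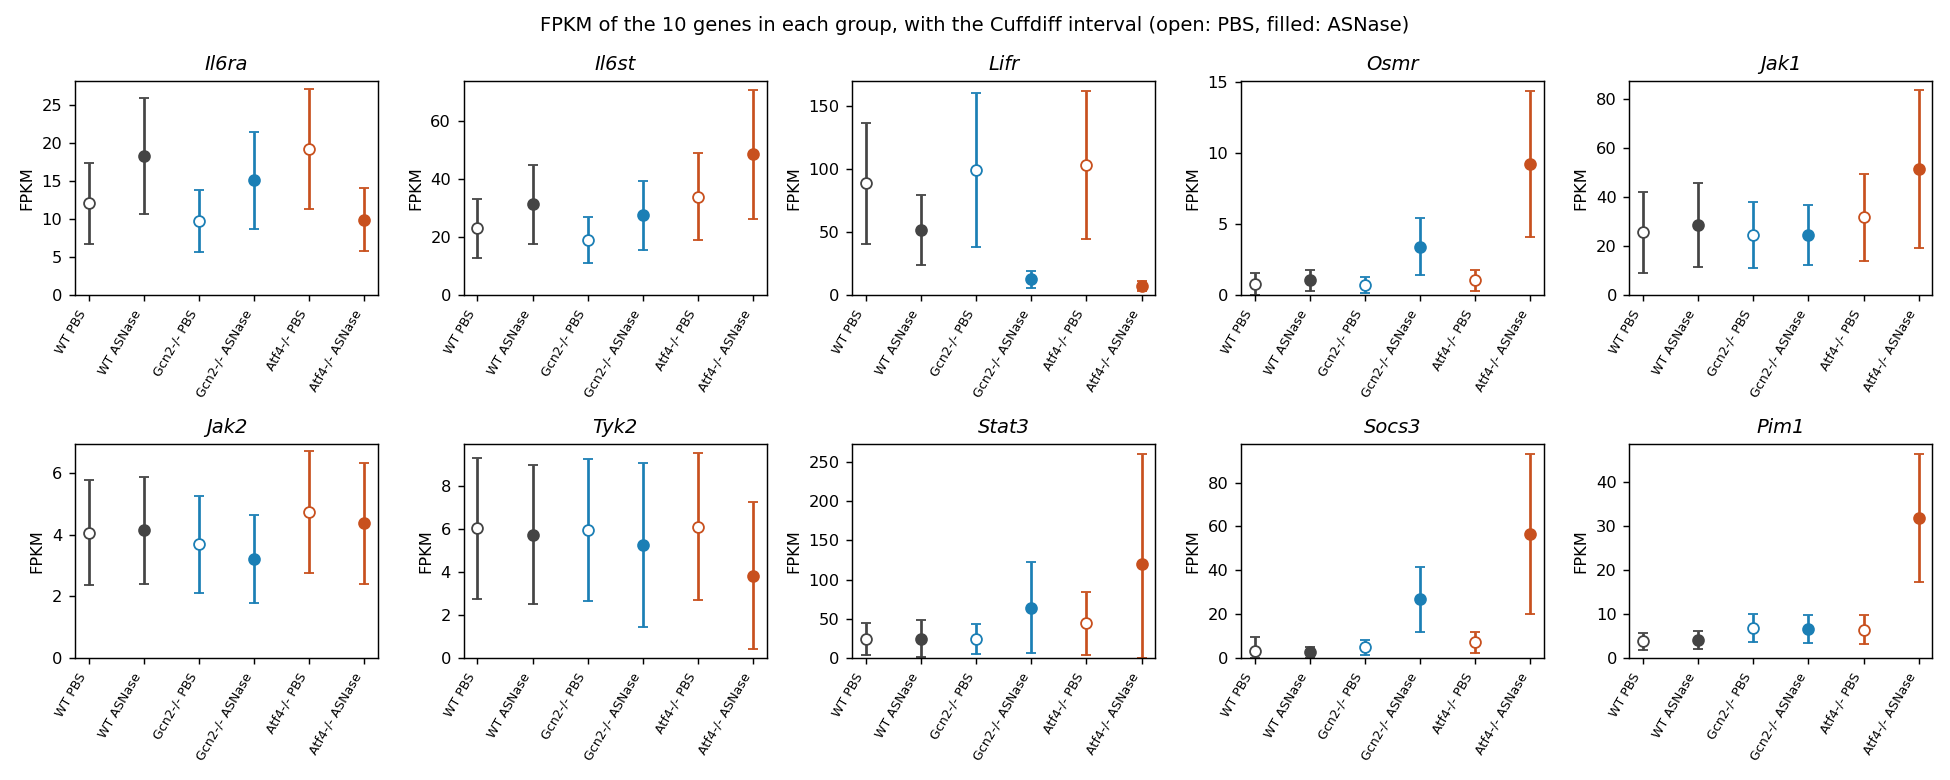
Each panel plots the FPKM of a gene (y axis, linear from 0) in the 6 groups (x axis), with open points for PBS, filled points for ASNase and bars for the Cuffdiff interval. *Lifr* fell to 12.7 and 7.39 FPKM in the ASNase-treated knockouts, *Socs3* reached 26.8 and 56.6, and *Pim1* stood out only in *Atf4*-/- ASNase at 31.8.

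For *Lifr*, *Socs3* and *Pim1*, 3 of the 4 genes that separated, the DNA just upstream of an annotated transcript start is shown. The *Osmr* window, which also lies within the span of its GENCODE gene, is not printed. The stretches come from RefSeq (GRCm38.p6), run 5′ to 3′ on the strand of the gene, and end at the first GENCODE exon met within the RefSeq promoter window. The *Socs3* and *Lifr* windows lie within their genes as well: GENCODE lists longer transcripts that begin further upstream, at 117970047 and 7090614, and for these the stretch is intronic. Capitals mark the only match to the STAT motif TTCNNNGAA, in which N is any base. *Socs3* lies on the minus strand (chr11:117969452-117969616), *Pim1* on the plus strand (chr17:29490535-29490752) and *Lifr* on the plus strand (chr15:7129322-7129558).
Socs3: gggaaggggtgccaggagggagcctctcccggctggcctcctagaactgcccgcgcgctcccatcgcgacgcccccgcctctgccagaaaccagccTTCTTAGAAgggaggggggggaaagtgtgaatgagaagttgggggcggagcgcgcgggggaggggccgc
Pim1: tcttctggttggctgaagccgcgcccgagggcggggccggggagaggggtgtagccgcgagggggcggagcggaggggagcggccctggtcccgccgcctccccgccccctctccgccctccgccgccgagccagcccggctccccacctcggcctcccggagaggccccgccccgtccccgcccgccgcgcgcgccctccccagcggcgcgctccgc
Lifr: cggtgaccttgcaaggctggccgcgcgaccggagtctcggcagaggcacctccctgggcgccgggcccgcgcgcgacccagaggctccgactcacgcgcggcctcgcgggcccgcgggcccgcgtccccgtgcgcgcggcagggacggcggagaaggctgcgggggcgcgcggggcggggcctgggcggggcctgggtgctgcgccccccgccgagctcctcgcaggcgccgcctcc

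The *Socs3* match, TTCTTAGAA, has 145 bases between it and the RefSeq start site. RefSeq windows of 300 bases, 250 before and 50 after a start site, were searched on both strands. All 10 genes had a window, 12 windows in all, and *Socs3* was the only gene with the STAT motif, which 8.3% of 32851 windows of all genes hold. The motif TGATGNAA, bound by ATF4 with a C/EBP partner, was in no member window and in 3.97% of all windows, and the C/EBP motif TTGCNNAA was in no member window and in 10.8% of all windows. With 1 match in all among the members, no motif overlapped another. GC content was 70.3% in the *Socs3* stretch, 83.0% in that of *Pim1* and 82.7% in that of *Lifr*. A match is a description of the letters only.

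*Lifr*, on the plus strand of chromosome 15 (mm10 positions 7129559 to 7197489 in the deposited table), encodes the LIF receptor chain that pairs with gp130. The positions given below for the other members have the same source and can differ from those of the GENCODE gene. For *Jak1*, *Stat3* and *Tyk2* they begin lower than the GENCODE positions of 101152367, 100885098 and 21104068. In WT mice *Lifr* was 88.7 FPKM (41.0 to 136) with PBS and 52.0 FPKM (24.1 to 79.8) with ASNase. In *Gcn2*-/- mice it was 99.3 FPKM (38.5 to 160) with PBS and 12.7 FPKM (5.91 to 19.4) with ASNase. The *Atf4*-/- values were 103 FPKM (44.9 to 162) with PBS and 7.39 FPKM (3.64 to 11.1) with ASNase. *Lifr* was high in all PBS groups, and the intervals of both ASNase-treated knockouts lay wholly below those of the 4 other groups. The log2 difference between ASNase and PBS was -2.96 in *Gcn2*-/- mice, 7.84-fold lower and the 70th lowest of 9218 tested genes. In *Atf4*-/- mice it was -3.79, 14.0-fold lower and the 87th lowest of 9485. The WT difference of -0.77 had overlapping intervals and was not called. Under ASNase, *Lifr* was 4.11-fold lower in *Gcn2*-/- and 7.03-fold lower in *Atf4*-/- than in WT mice, while the interval of the *Gcn2*-/- value overlapped that of the *Atf4*-/- value. The summed level of hepatocyte markers was 26219 FPKM with PBS and 14783 with ASNase in *Gcn2*-/- mice, and 21436 and 10935 in *Atf4*-/- mice. All 10 markers had overlapping intervals or differences too small to be called, their median log2 differences were -0.64 and -0.67, and their part in the fall of *Lifr* was not tested.

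*Osmr*, on the minus strand of the same chromosome (6813577 to 6874969), encodes the oncostatin M receptor chain, the alternative partner of gp130. It was the lowest of the 10 genes in every PBS group and in WT ASNase. In WT mice *Osmr* was 0.815 FPKM (0.0319 to 1.60) with PBS and 1.05 FPKM (0.328 to 1.78) with ASNase, below the limit of 3 FPKM. In *Gcn2*-/- mice it was 0.714 FPKM (0.138 to 1.29) with PBS and 3.42 FPKM (1.42 to 5.42) with ASNase. *Atf4*-/- mice had 1.04 FPKM (0.325 to 1.76) with PBS and 9.22 FPKM (4.11 to 14.3) with ASNase. The *Atf4*-/- ASNase interval lay above those of WT and of all PBS groups, whereas that of *Gcn2*-/- ASNase cleared its own PBS group but overlapped both WT groups. The rise was 4.79-fold in *Gcn2*-/- mice (log2 difference 2.11) and 8.85-fold in *Atf4*-/- mice (3.03). With a pseudocount of 1 in place of 0.1 the *Gcn2*-/- difference was 1.37 and was no longer called.

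*Il6st*, the gp130 gene, lies on chromosome 13 (112475008 to 112506860). With PBS WT mice had 23.1 FPKM (13.0 to 33.1) and with ASNase 31.3 (17.8 to 44.8). It was 19.1 FPKM (11.1 to 27.1) in *Gcn2*-/- PBS and 27.6 (15.7 to 39.5) in *Gcn2*-/- ASNase. In *Atf4*-/- mice it was 34.0 FPKM (19.0 to 49.1) with PBS and 48.6 (26.4 to 70.8) with ASNase. The ASNase value was above the PBS value in each strain, by 0.44, 0.53 and 0.51 on the log2 scale, but no interval separated. *Il6ra*, the IL-6 binding chain on chromosome 3 (89869324 to 89913162), was 12.1 FPKM (6.80 to 17.4) with PBS and 18.3 (10.7 to 25.9) with ASNase in WT mice. The *Gcn2*-/- values were 9.77 FPKM (5.73 to 13.8) with PBS and 15.1 (8.64 to 21.5) with ASNase. *Atf4*-/- mice had the highest value with PBS, 19.2 FPKM (11.3 to 27.1), and 9.92 (5.76 to 14.1) with ASNase. The log2 difference of *Il6ra* was thus 0.59 in WT and 0.62 in *Gcn2*-/- but -0.95 in *Atf4*-/- mice, none of them called.

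By value, the receptor chains therefore stood in a different order in the treated knockouts. In *Gcn2*-/- ASNase the interval of *Lifr* overlapped those of *Il6ra* and *Il6st*, and in *Atf4*-/- ASNase it overlapped that of *Il6ra*. The *Lifr* interval also overlapped those of *Il6st* and *Il6ra* in WT ASNase and that of *Il6st* in *Atf4*-/- PBS. The ratios and shares below carry no interval. FPKM is scaled by transcript length, so levels of different genes can be set side by side. *Lifr* exceeded *Osmr* 109-fold in WT PBS, 49.4-fold in WT ASNase, 139-fold in *Gcn2*-/- PBS and 99.3-fold in *Atf4*-/- PBS. The ratio was 3.70 in *Gcn2*-/- ASNase and 0.802 in *Atf4*-/- ASNase, where the intervals of *Lifr* and *Osmr* overlapped. *Lifr* made up 87.3% of the summed FPKM of *Lifr*, *Osmr* and *Il6ra* with PBS and 72.9% with ASNase in WT mice. Its share was 90.5% with PBS and 40.6% with ASNase in *Gcn2*-/- mice, and 83.6% with PBS and 27.9% with ASNase in *Atf4*-/- mice. Against the shared chain, *Lifr* was 3.85 times *Il6st* with PBS and 1.66 times with ASNase in WT mice. The ratio was 5.20 and 0.458 in *Gcn2*-/- and 3.04 and 0.152 in *Atf4*-/- mice.

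**Figure D2:**
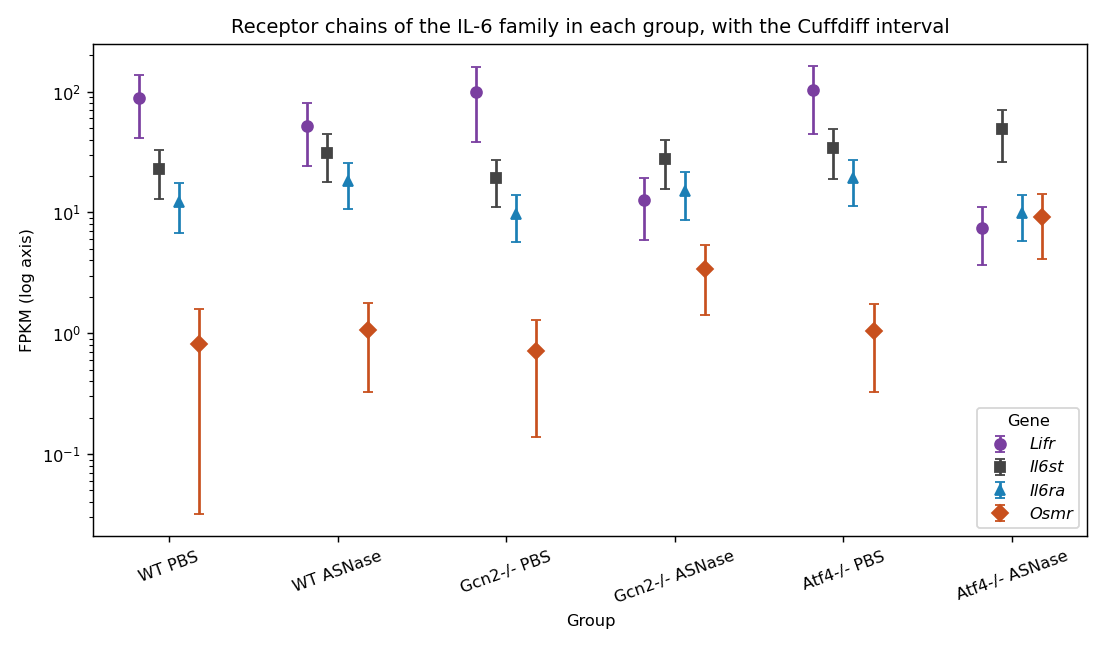
FPKM of *Lifr*, *Il6st*, *Il6ra* and *Osmr* (y axis, log scale) in the 6 groups (x axis), with bars for the Cuffdiff interval. By value *Lifr* is the highest chain in the PBS groups and WT ASNase, with an interval that overlaps that of *Il6st* in *Atf4*-/- PBS and WT ASNase. It lies under *Il6st* in both ASNase-treated knockouts, with overlapping intervals in *Gcn2*-/-, and meets *Osmr* in *Atf4*-/- ASNase at 7.39 against 9.22 FPKM.

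Among the kinases, *Jak1*, the main JAK of gp130 receptors, lies on chromosome 4 (101068983 to 101265282). It was 25.7 FPKM (9.27 to 42.1) in WT PBS, 28.6 (11.6 to 45.5) in WT ASNase, 24.5 (11.1 to 37.9) in *Gcn2*-/- PBS and 24.5 (12.2 to 36.7) in *Gcn2*-/- ASNase. In *Atf4*-/- mice it was 31.7 FPKM (14.0 to 49.4) with PBS and 51.3 (19.1 to 83.5) with ASNase. The *Atf4*-/- ASNase value was the highest, with an interval that overlapped all others. *Jak2*, on chromosome 19 (29251828 to 29313080), was 4.06 and 4.13 FPKM in WT, 3.69 and 3.21 in *Gcn2*-/- and 4.72 and 4.36 in *Atf4*-/- mice with PBS and ASNase. *Tyk2*, on chromosome 9 (21074168 to 21128393), was 6.04 and 5.75 FPKM in WT, 5.97 and 5.28 in *Gcn2*-/- and 6.11 and 3.84 in *Atf4*-/- mice in the same order. *Jak2* had the narrowest range of the 10 genes, 1.47-fold from lowest to highest group, followed by *Tyk2* at 1.59-fold. *Jak1* exceeded *Jak2* between 6.32-fold in WT PBS and 11.8-fold in *Atf4*-/- ASNase.

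*Stat3*, on the minus strand of chromosome 11 (100859351 to 100939540), was 24.2 FPKM (3.95 to 44.4) with PBS and 24.6 (0.906 to 48.3) with ASNase in WT mice. In *Gcn2*-/- mice it was 23.9 FPKM (4.51 to 43.3) with PBS and 63.9 (5.79 to 122) with ASNase. *Atf4*-/- mice had 44.2 FPKM (4.31 to 84.0) with PBS and 120 (0 to 260) with ASNase. The values of both treated knockouts were the highest of the 6, but the intervals were wide and overlapped in every pair of groups. The log2 difference between ASNase and PBS was 1.41 in *Gcn2*-/-, 1.43 in *Atf4*-/- and 0.03 in WT mice, and none was called. *Stat3* was the highest of the 10 genes in both treated knockouts, whereas *Lifr* was the highest in the other 4 groups, but only in *Gcn2*-/- PBS was the interval of the highest gene clear of the next.

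*Socs3*, the feedback inhibitor encoded on the minus strand of chromosome 11 (117966079 to 117970047), had the widest range of the 10 genes, 22.0-fold. In WT mice it was 3.36 FPKM (0 to 9.48) with PBS and 2.57 FPKM (0.118 to 5.02) with ASNase. In *Gcn2*-/- mice it was 4.93 FPKM (1.43 to 8.44) with PBS and 26.8 FPKM (11.9 to 41.7) with ASNase. The *Atf4*-/- values were 7.23 FPKM (2.40 to 12.1) with PBS and 56.6 FPKM (20.1 to 93.1) with ASNase. Both treated knockouts were above every WT value and their own PBS groups, and their intervals overlapped each other. ASNase raised *Socs3* 5.43-fold in *Gcn2*-/- (log2 difference 2.42) and 7.82-fold in *Atf4*-/- mice (2.95). Under ASNase it was 10.4-fold higher in *Gcn2*-/- and 22.0-fold higher in *Atf4*-/- than in WT mice, the 57th highest of 9423 and the 34th highest of 9577 genes. The ratio of *Socs3* to *Stat3* FPKM was 0.139 and 0.105 in WT, 0.206 and 0.420 in *Gcn2*-/- and 0.164 and 0.473 in *Atf4*-/- mice with PBS and ASNase.

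*Pim1*, a serine/threonine kinase gene on chromosome 17 (29490812 to 29495445), was 3.79 FPKM (1.85 to 5.74) with PBS and 4.08 (2.04 to 6.12) with ASNase in WT mice. In *Gcn2*-/- mice it was 6.85 FPKM (3.62 to 10.1) with PBS and 6.61 (3.50 to 9.72) with ASNase. In *Atf4*-/- mice it was 6.42 FPKM (3.18 to 9.67) with PBS and 31.8 (17.2 to 46.4) with ASNase. The *Atf4*-/- ASNase interval lay above those of all 5 other groups, which overlapped each other. The rise with ASNase was 4.95-fold in *Atf4*-/- mice (log2 difference 2.29), against -0.05 in *Gcn2*-/- and 0.10 in WT mice. Markers of Kupffer cells and macrophages, immune cells that can also express *Socs3* and *Pim1*, summed over 10 genes to 239 FPKM with PBS and 310 with ASNase in *Gcn2*-/- mice. In *Atf4*-/- mice they summed to 410 and 270 FPKM, and none was at 0. *Marco* was called higher in both strains, from 8.32 to 118 FPKM in *Gcn2*-/- and from 9.22 to 67.3 in *Atf4*-/- mice. *Cd5l* was called lower in *Atf4*-/- mice. In *Gcn2*-/- mice *Marco* rose by more than the sum, so the sum of the other markers fell. There *Clec4f* (67.3 to 15.9 FPKM), *Vsig4* (17.7 to 8.56) and *Cd5l* (46.6 to 44.4) fell with overlapping intervals. The values of *Timd4*, *Adgre1*, *Csf1r*, *Cd68*, *C1qa* and *C1qb* rose, none of them called. Markers of neutrophils summed to 12.1 and 1.67 FPKM in *Gcn2*-/- and 16.9 and 6.74 in *Atf4*-/- mice with PBS and ASNase. The part of either cell type in the rises of *Socs3* and *Pim1* was not tested.

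Whether a response differed between strains was judged from the difference of the log2 differences, set against a combined distance over the 4 groups involved. For each group the distance from FPKM to upper interval edge was divided by the FPKM plus the pseudocount. It was put on the log2 scale by a linear approximation, and the groups were combined as the root of summed squares. On the log2 scale the lower edges lie further away than this. The gap is widest where the lower edge is very low, as for *Osmr* and *Socs3* in WT PBS. Whether the differences below also exceed a distance taken from the lower edges was not tested. Between *Gcn2*-/- and WT mice only *Lifr* differed by more than that distance, by -2.19 against 1.60. Between *Atf4*-/- and WT mice the difference was -3.02 against 1.54 for *Lifr*, 3.33 against 3.16 for *Socs3*, 2.70 against 1.95 for *Osmr*, 2.19 against 1.40 for *Pim1* and -1.54 against 1.20 for *Il6ra*. Between *Atf4*-/- and *Gcn2*-/- mice it was 2.34 against 1.36 for *Pim1* and -1.57 against 1.19 for *Il6ra*. The *Socs3* difference between *Gcn2*-/- and WT mice, 2.79, was within its distance of 3.14, and no value of a single mouse was available to narrow it. These contrasts share groups, so their values are not independent of each other.

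**Figure D3:**
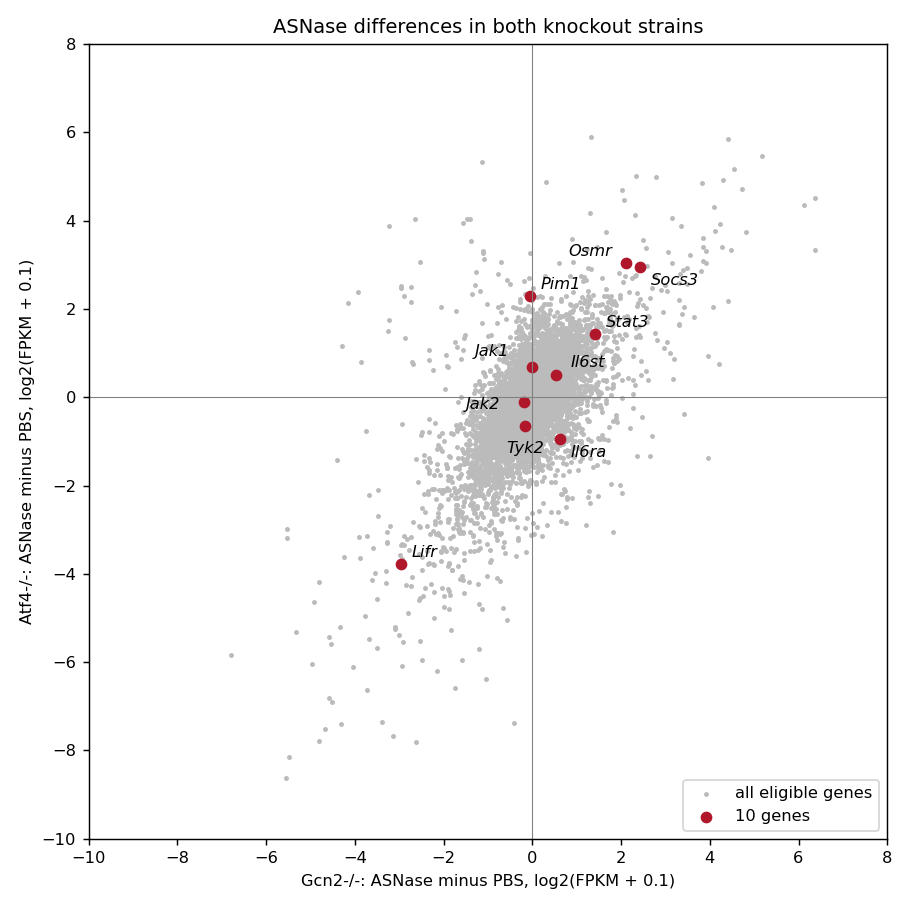
The x axis is the log2 difference between ASNase and PBS in *Gcn2*-/- mice and the y axis that in *Atf4*-/- mice, with grey points for the 8911 genes that could be called in both and red points for the 10 genes. *Osmr* and *Socs3* lie at the upper right and *Lifr* at the lower left, while *Pim1* is at -0.05 on the x axis and 2.29 on the y axis.

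Genotype alone, in PBS-treated mice, gave no called member. The share of all tested genes called was 1.04% for *Gcn2*-/- against WT, 1.12% for *Atf4*-/- against WT and 0.976% for *Atf4*-/- against *Gcn2*-/-. Each of the 10 genes had a higher value in *Atf4*-/- PBS than in WT PBS, with a median log2 difference of 0.44 against 0.00 over all tested genes. The largest were *Socs3* at 1.08, *Stat3* at 0.87 and *Pim1* at 0.74, all with overlapping intervals. In *Gcn2*-/- PBS 3 genes were above and 7 below WT PBS, with a median of -0.04.

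Under ASNase 4.41% of tested genes were called for *Gcn2*-/- against WT, and 2 of 10 members were, *Socs3* with a log2 difference of 3.33 and *Lifr* with -2.03. *Osmr* had a difference of 1.61 with overlapping intervals. For *Atf4*-/- against WT 8.25% of genes were called, and the 4 members were *Socs3* (4.41), *Osmr* (3.01), *Pim1* (2.93) and *Lifr* (-2.80). *Stat3* had a difference of 2.28 that was not called. Between *Atf4*-/- and *Gcn2*-/- under ASNase 3.19% of genes were called, and *Pim1* was the only member, 4.81-fold higher in *Atf4*-/- mice.

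**Figure D4:**
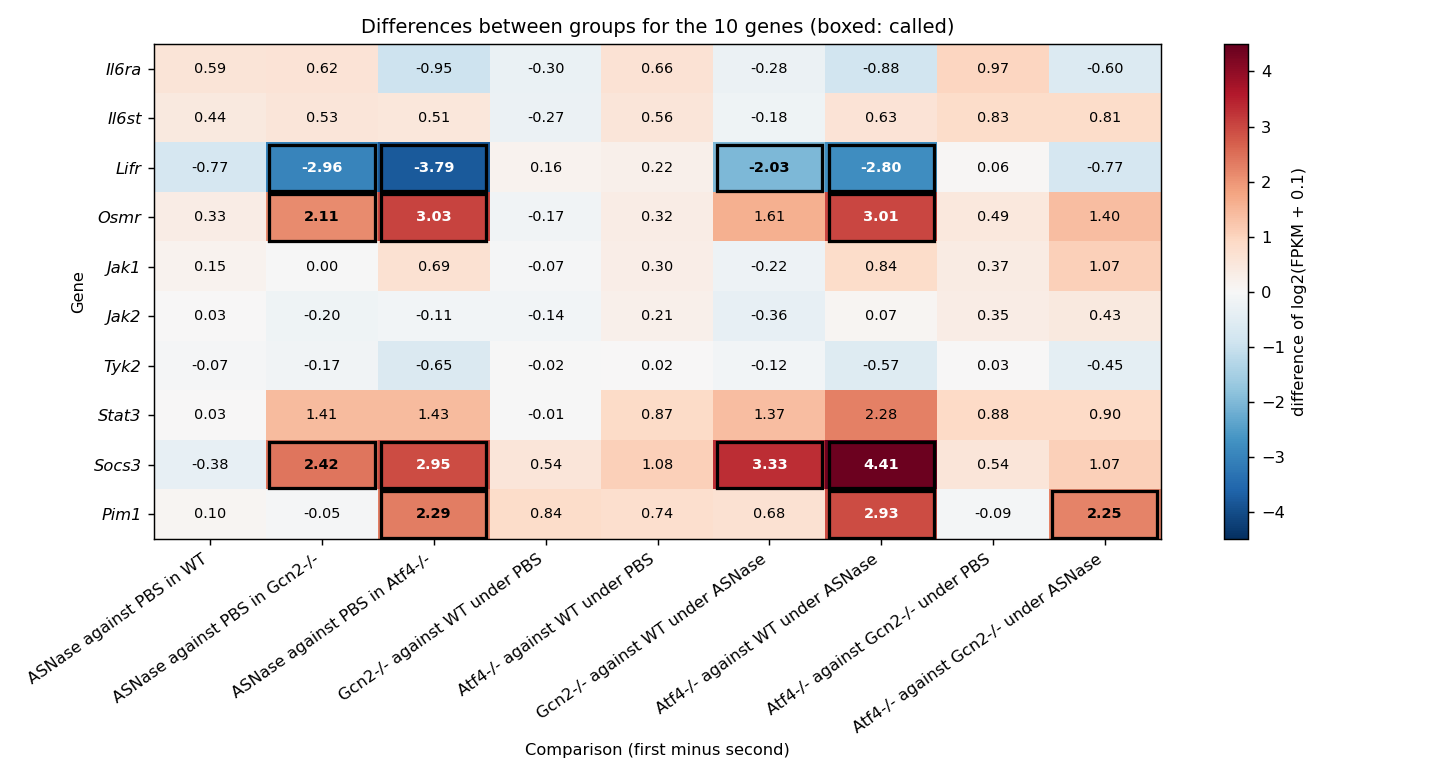
Each cell gives the difference of log2(FPKM + 0.1), first group minus second, for the 10 genes (y axis) in the 9 comparisons (x axis), coloured from blue (lower) to red (higher), with called differences boxed. No box falls in the WT response or in the 3 PBS comparisons, and *Lifr*, *Osmr*, *Socs3* and *Pim1* hold all boxes.

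By closeness of the centred log2 profile over the 6 groups, among 10171 genes that exceeded 3 FPKM somewhere, the genes nearest to *Socs3* were *Icam1* (root mean square distance 0.27), which encodes a leukocyte adhesion molecule, *Cyb561* (0.33) and *Prg4* (0.34). *Icam1* was at 3.83 to 7.60 FPKM in WT and in the PBS groups and at 45.2 and 62.8 FPKM in *Gcn2*-/- and *Atf4*-/- ASNase. Nearest to *Lifr* were *H2-Ab1* (0.26), an MHC class II gene, and the steroid dehydrogenase genes *Hsd3b3* (0.26) and *Hsd17b6* (0.29). Nearest to *Osmr* were *Zc3h12a* (0.18), which encodes an RNase that degrades cytokine mRNAs, *Atp10d* (0.19) and *Ddx28* (0.30).

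The ligands of these receptors were low in liver RNA. *Il6* was 0.0311 and 0.0249 FPKM in WT mice, 0.0464 and 0.651 in *Gcn2*-/- and 0.138 and 0.680 in *Atf4*-/- mice with PBS and ASNase. All *Il6* values were below 3 FPKM, so no comparison was made. *Il11*, *Lif* and *Osm* stayed at or below 0.132 FPKM and *Il27* at or below 0.111, *Il11* being listed at 0 in WT ASNase and *Atf4*-/- ASNase. *Cntf* ranged from 0.621 to 1.42 FPKM and *Ctf1*, the cardiotrophin gene, from 2.19 to 3.38. *Clcf1*, which encodes a cytokine that signals through gp130 and the LIF receptor, rose from 0.546 (0.0295 to 1.06) to 4.77 FPKM (1.71 to 7.83) with ASNase in *Atf4*-/- mice, where *Lifr* fell. It was 0.844 and 1.02 FPKM in *Gcn2*-/- mice.

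The other genes of the pathway were counted over 59 further ligands, receptor chains, kinases, STATs, inhibitors, adaptors and targets. With ASNase 0 of the 39 that could be called were called in WT, 2 of 39 in *Gcn2*-/- and 7 of 43 in *Atf4*-/- mice, all of them higher, beside 0.881%, 3.69% and 7.37% of all tested genes called in either direction. Medians were 0.04, 0.22 and 0.10, beside -0.01, 0.02 and 0.08 over all tested genes. *Il1r1*, the IL-1 receptor gene, rose from 6.88 to 78.0 FPKM in *Gcn2*-/- and from 17.6 to 105 in *Atf4*-/- mice. *Cebpd*, a C/EBP transcription factor gene, rose from 3.35 to 25.6 and from 6.80 to 37.1 FPKM. The others called in *Atf4*-/- mice were the inhibitor *Socs1* (0.429 to 6.90 FPKM), the phosphatase *Ptpn2* (7.58 to 24.0), *Junb* (20.7 to 92.6), *Myc* (1.75 to 13.8) and *Clcf1*. *Socs1* and *Ptpn2* are, like *Socs3*, brakes on JAK signalling.

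By genotype with PBS, 1 of the 39 genes of this wider set that could be called was called for *Gcn2*-/- against WT. For *Atf4*-/- against WT 2 of 41 were called, and for *Atf4*-/- against *Gcn2*-/- 0 of 40. The shares of all tested genes called were 1.04%, 1.12% and 0.976%. *Egr1*, an immediate early gene, was 3.34 FPKM in WT PBS and 11.2 and 13.1 in *Gcn2*-/- and *Atf4*-/- PBS, called in both, and *Il1r1* was called higher in *Atf4*-/- PBS. Under ASNase *Junb*, *Cebpd* and *Il1r1* were called in *Gcn2*-/- against WT, and these with *Clcf1*, *Socs1*, *Ptpn2*, *Myc* and *Egr1* in *Atf4*-/- against WT. They were 3 of 39 and 8 of 42 that could be called, beside 4.41% and 8.25% of all tested genes. Between the treated knockouts *Myc* (log2 difference 2.31) and *Egr1* (1.61) were higher in *Atf4*-/- mice. That was 2 of 42 called higher, beside 0.898% of all tested genes called higher. The most abundant genes of the remaining lists, *Lepr* (up to 63.0 FPKM), *Socs2* (up to 35.7), *Jak3* (up to 7.22), *Stat6* (up to 22.3), *Grb2* (up to 40.4), *Adam17* (up to 8.75), *Pim3* (up to 59.2) and *Tnfrsf1a* (up to 122), were not called in any of the 9 comparisons. The intervals of *Jak3* did separate upward in the *Gcn2*-/- response (log2 difference 1.49) and in *Gcn2*-/- against WT under ASNase (1.39). Both differences were under the limit of 1.5. The *Lepr* value, for the leptin receptor, was that of *Atf4*-/- ASNase and had an interval from 0 to 193.

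Liver acute phase genes, several of them known STAT3 targets, were followed as a list of 26. The part of STAT3 in their levels was not tested. With ASNase 6 of the 19 that could be called were called higher in *Gcn2*-/- and 3 of 19 in *Atf4*-/- mice, with medians of 2.94 and 2.31, beside 1.56% and 2.74% of all tested genes called higher. In WT mice 0 of 22 were called and the median was -0.22. The 6 genes with the widest range were *Saa3*, *Lcn2*, *Saa2*, *Orm2*, *Saa1* and *Orm3*. *Orm3*, an orosomucoid gene, was 2.41 and 0.783 FPKM in WT, 1.01 and 92.1 in *Gcn2*-/- and 10.9 and 111 in *Atf4*-/- mice with PBS and ASNase, and was called higher in both knockouts. *Saa3* was 17.7 and 12.2 FPKM in WT, 876 and 12427 in *Gcn2*-/- and 23.2 and 672 in *Atf4*-/- mice, called in the *Atf4*-/- response. *Lcn2* and *Orm2* had intervals that overlapped between PBS and ASNase in both knockouts. With PBS 2 of the 22 acute phase genes that could be called, *Saa3* and *Orm2*, were called higher in *Gcn2*-/- than in WT mice. The share of all tested genes called higher was 0.392%. In *Atf4*-/- mice 4 of 23, *Lcn2*, *Orm2*, *Orm3* and *Lrg1*, were called higher than in WT, beside 0.354% of all tested genes. Under ASNase 7 of 19 were called higher than in WT in each knockout, beside 1.83% of all tested genes in *Gcn2*-/- and 2.59% in *Atf4*-/- mice. *Saa1* and *Saa2* had no usable estimate in *Gcn2*-/- ASNase, where the status was not OK. Also called in *Gcn2*-/- mice were *Saa4*, *Apcs*, *Lrg1* and *Steap4*, the last of which was called in *Atf4*-/- mice too. *Hamp*, the hepcidin gene, was called only for *Atf4*-/- against WT under ASNase among the 9 comparisons. *A2m*, an acute phase protease inhibitor gene, rose from 0.0417 to 4.96 FPKM in *Gcn2*-/- mice and was 0.567 FPKM in *Atf4*-/- ASNase.

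**Figure D5:**
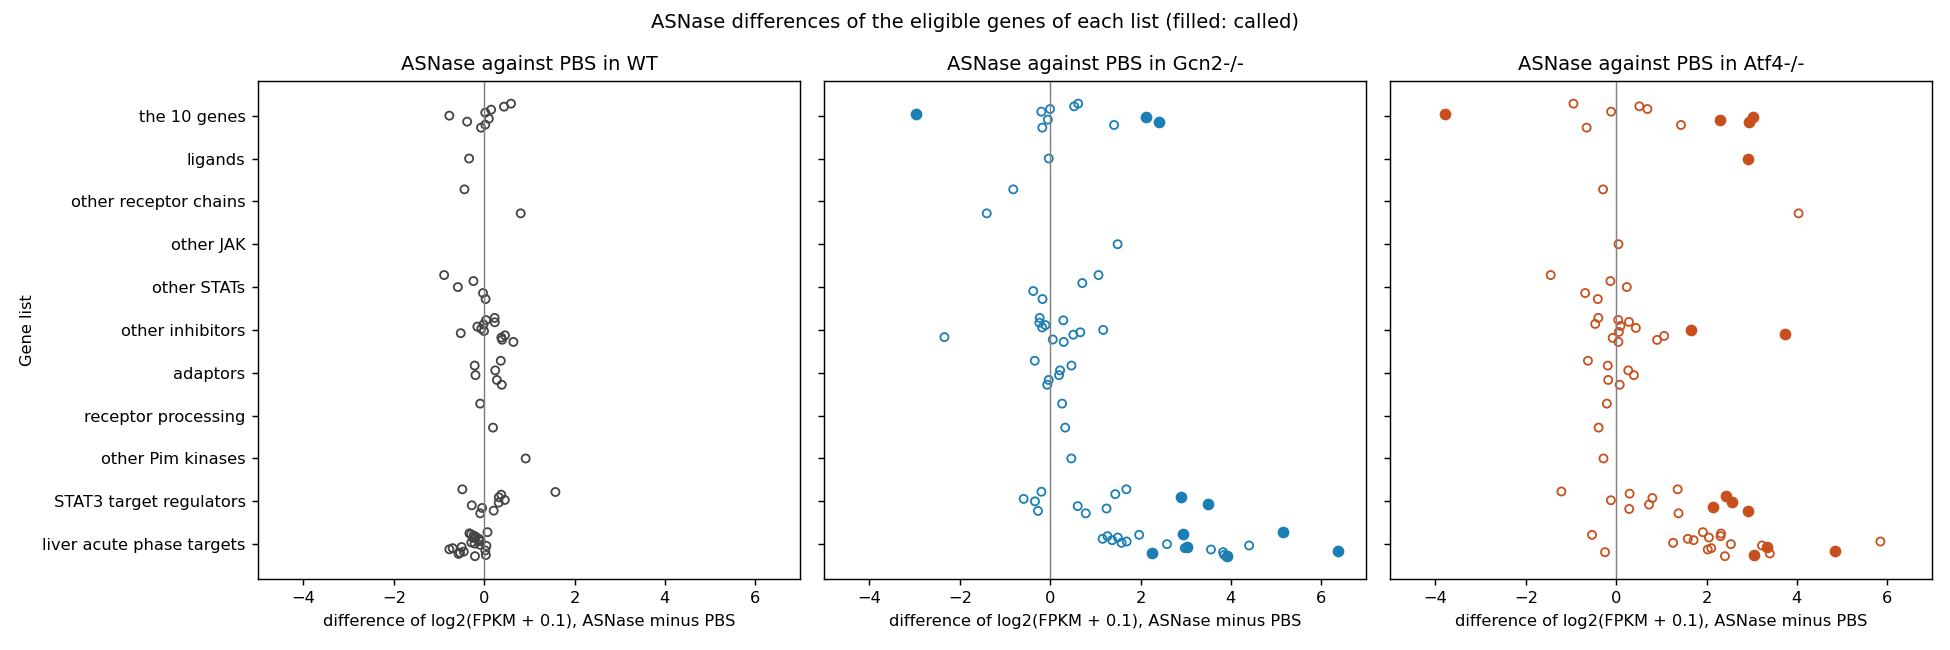
Each point is a gene that could be called, placed by its difference of log2(FPKM + 0.1) between ASNase and PBS (x axis) and by its list (y axis), with a panel per strain and filled points for called genes. Points lie near 0 in WT, while the acute phase list is shifted to the right in both knockouts, with medians of 2.94 and 2.31.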

How the data were processed

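Livers of 18 mice in 6 groups of 3 were profiled by polyA RNA-Seq. The authors mapped the reads to mm10 (TopHat, Bowtie), built a merged transcript set (Cufflinks, Cuffmerge) and deposited FPKM values from Cuffdiff, 1 per group of 3 libraries, with interval bounds and a status. The deposited table holds 37303 genes, 1 value per group and no counts, so depth behind a value is known only through its interval. Of its value columns 0 were without a group.

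The 10 members and the gene lists were chosen with earlier results of these data known. Named beside the members were the ligands, each listed gene called in at least 1 of 9 comparisons, the most abundant gene of each list, the 6 acute phase genes with the widest range, and the 3 nearest profiles of the 3 members with the widest range. A listed gene that met this rule is not reported here. Calls required status OK, FPKM over 3, a difference of log2(FPKM + 0.1) over 1.5 in size and intervals that did not overlap, over all genes. Because the table holds no value per library, the planned linear model, the fits without each mouse and the replicate block were not run. The alternatives tried were other pseudocounts, FPKM limits and fold limits, median-ratio scaling, and combined interval widths. Promoter sequences were taken from RefSeq (GRCm38.p6). Python 3.11.15, pandas 2.3.3, numpy 2.4.6 and matplotlib 3.10.9 were used, and the call rule was run on simulated data. There the changes were large and set in genes with narrower intervals, and unchanged genes varied too little to be called. That run therefore checks the working of the rule and not its rate of false or missed calls between these groups.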

Additional observations from a re-analysis of the deposited data

How the results depend on the processing

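Counts of called genes rose by over 1.5 times under 1 alternative, no limit on FPKM, which by construction tests more genes: from 80 to 124 for ASNase against PBS in WT, from 93 to 144 for *Gcn2*-/- against WT under PBS and from 101 to 153 for *Atf4*-/- against WT under PBS. Every other count stayed within 1.5 times. Among members, only *Osmr* changed its call: it was lost in the *Gcn2*-/- response with a pseudocount of 1 (log2 difference 1.37 against 2.11) and gained in *Gcn2*-/- against WT under ASNase with combined interval widths, taken on the FPKM scale. All 630 member differences under the alternatives moved by less than their interval error. Only the other pseudocounts and median-ratio scaling could move a difference. The other FPKM limits, fold limits and combined widths change calls alone and leave it as it was by construction. Median-ratio scaling shifted the median of all genes by at most 0.07 in size, and changed the sign of *Jak1* in the *Gcn2*-/- response, where the difference was close to 0. No paired analysis was possible because the table holds 1 value per group, and for the same reason no replicate could be left out. The wide intervals of *Stat3* limit what can be said of it.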
